A study of Homo sapiens with 36 samples.

Results

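The genes described are the core of the TGF-β pathway in A549 cells, an established human lung adenocarcinoma line, during and after long exposure to the inflammatory cytokine IL-1β. They are the ligands TGFB1, TGFB2 and TGFB3, the receptors TGFBR1, TGFBR2 and TGFBR3, the signal transducers SMAD2, SMAD3 and SMAD4, and TGFBI, a secreted matrix protein named for its induction by TGF-β. The 10 genes were taken by symbol through their Ensembl identifiers from the 63677 genes of the count tables, and all 10 were among the 19180 genes with enough counts to test. Control cultures (Ctrl) and cultures given IL-1β (IL1b; 1 ng/ml) were compared at 6 time points: after 6, 15 and 21 days of exposure, and 6, 15 and 30 days after IL-1β was removed from cells that had received it for 21 days. Both arms were the same line, grown in RPMI medium with serum and split every few days, and each of the 12 groups had 3 libraries that the labels call biological replicates. The labels do not say whether these came from separate cultures, so the p-values measure the spread between these libraries. No group received TGF-β itself or an inhibitor of its receptors, and mRNA levels say nothing of how much ligand was active.

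TGF-β ligands are secreted in a latent form, bound to their own propeptide and to matrix proteins, and act only once released from it. Active ligand brings together the type II receptor TGFBR2 and the type I receptor TGFBR1, and the co-receptor TGFBR3 (betaglycan) presents ligand, TGF-β2 above all, to them. TGFBR1 then phosphorylates SMAD2 and SMAD3, which enter the nucleus with SMAD4 and regulate genes of the extracellular matrix, the cell cycle and epithelial-mesenchymal transition (EMT), the change of epithelial cells toward a motile, matrix-producing state.

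The libraries held 9116032 to 23570026 reads counted on genes. In 11 of the 36, mitochondrial genes took 11.8% to 24.6% of these reads, against 5.61% to 7.75% in the other 25. These 11 libraries, 6 from control and 5 from IL-1β cells, fell unevenly over the design: 8 carried replicate number 2, and 8 were collected after withdrawal. Results they touch are therefore also given without them. Without them the control groups of days 6 and 15 after withdrawal were left with 1 library each, whose spread the fit takes from the other groups. The IL-1 target CXCL8 went with the labels, at 0.258 to 2.92 CPM (counts scaled to library size) in control cells and with a log2 fold change of 7.10, 5.85 and 6.91 at days 6, 15 and 21 of exposure. The epithelial genes KRT8 (1768 to 4818 CPM), KRT18 and CDH1 were well expressed in control cells, but EPCAM reached 1.63 CPM at most and KRT19 0.195. The first 3 had lower medians over the 18 libraries of the IL-1β arm, withdrawal times included, at 955 against 3199 CPM for KRT8, 596 against 1699.7 for KRT18 and 110.4 against 236 for CDH1, and their part in the results was not tested. Of the 8 markers of leukocytes, endothelium and fibroblasts, 7 were matched, and together they summed to 0.181 to 1.28 CPM in any library, with CD3E at 0 in all 36.

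IL-1β raised the matrix gene TGFBI 2.6-fold and the co-receptor TGFBR3 1.71-fold over the exposure times, and both responses were smaller once IL-1β was gone. SMAD3 and TGFBR1 were slightly higher with IL-1β on average over the exposure times and SMAD2 slightly lower. TGFBR2, SMAD4 and the 3 ligands passed no threshold at any of the time points in the fit with the 12 groups as the only terms. With high mitochondrial share added as a term, TGFB2 passed the adjusted p at day 6 after withdrawal (0.73, adjusted p = 0.00586, edgeR). A gene was called changed at a time point when its adjusted p was under 0.05, from the quasi-likelihood test of edgeR, adjusted by Benjamini-Hochberg over all 19180 genes, and its fold change was over 2. By this rule 1 of the 10 genes, TGFBI, was called at each exposure time, against 2.77% of all tested genes at day 6, 4.24% at day 15 and 4.26% at day 21. On the adjusted p alone TGFBR3 joined it at each of these times, which made 2 of the 10, against 4.27%, 6.43% and 6.4% of all genes. After withdrawal 0 of the 10 were called by either rule by edgeR, against 1.8%, 0.954% and 0.897% of all genes past both thresholds at days 6, 15 and 30 and 2.62%, 1.36% and 1.31% past the adjusted p alone. At an unadjusted p under 0.05 by edgeR, TGFBI and SMAD2 were past at day 6 after withdrawal and TGFBR3 at days 15 and 30. Of the 19180 tested genes, 1840, 1679 and 1602 were past that level at days 6, 15 and 30 after withdrawal. DESeq2's Wald test gave TGFBI at day 6 after withdrawal an adjusted p of 0.00294. The median log2 fold change of the 10 genes was 0.21, 0.22 and 0.23 at days 6, 15 and 21, beside medians of all tested genes of -0.02, -0.02 and -0.01.

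**Figure D1:**
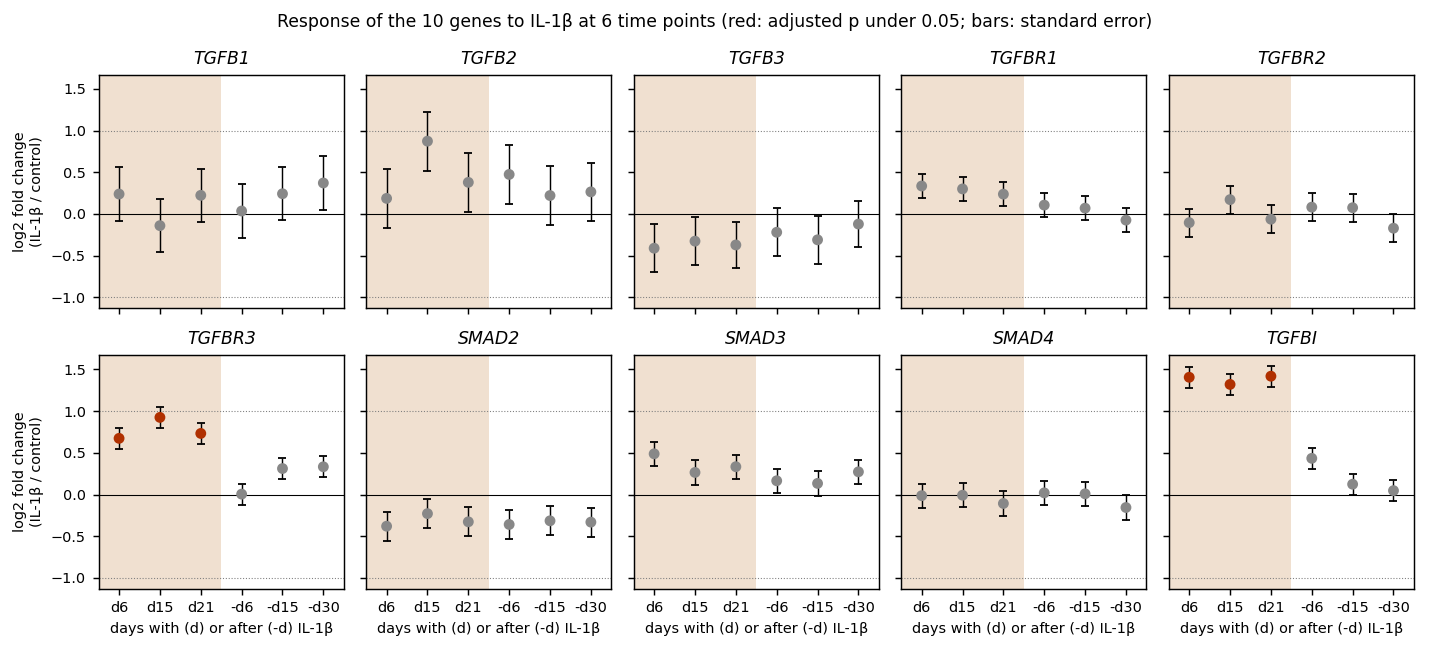
Log2 fold change of each of the 10 genes, IL-1β over control (vertical axis), at the 6 time points (horizontal axis), with the standard error as bars, red where the adjusted p was under 0.05 and shading over the exposure times. TGFBI sat between 1.32 and 1.42 and TGFBR3 between 0.67 and 0.92 during exposure, while every other point lay between -0.41 and 0.87 and none of them passed the adjusted p.

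The promoters of the 2 genes that moved most, TGFBI and TGFBR3, are shown because both rose during exposure and fell back after withdrawal. Each is the RefSeq window of 300 bases, 250 before to 50 after the annotated start, 5′ to 3′ on the gene's own strand, from build GRCh38.p14 (the counts use GRCh37). TGFBI lies at chr5:136028738-136029037 on the plus strand and TGFBR3 at chr1:91886102-91886401 on the minus strand. Capitals mark the GC box, the letters GGGCGG on either strand.
TGFBI: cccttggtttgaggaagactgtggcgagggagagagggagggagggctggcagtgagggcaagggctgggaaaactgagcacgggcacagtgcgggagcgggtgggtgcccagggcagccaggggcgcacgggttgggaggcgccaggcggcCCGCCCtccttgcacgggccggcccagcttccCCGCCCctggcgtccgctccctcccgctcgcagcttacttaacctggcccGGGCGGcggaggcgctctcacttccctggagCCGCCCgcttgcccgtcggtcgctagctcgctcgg
TGFBR3: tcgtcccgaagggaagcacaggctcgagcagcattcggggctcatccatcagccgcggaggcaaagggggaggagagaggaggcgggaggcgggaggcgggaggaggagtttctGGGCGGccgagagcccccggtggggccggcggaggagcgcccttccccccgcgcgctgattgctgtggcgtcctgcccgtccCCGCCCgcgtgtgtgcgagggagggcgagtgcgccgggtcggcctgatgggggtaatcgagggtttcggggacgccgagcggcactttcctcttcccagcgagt
The TGFBI window held 4 GC boxes in 72.7% G and C, and the TGFBR3 window 2 in 71.7%. Neither window held the SMAD-binding letters CAGAC, the AP-1 letters TGANTCA, an NF-κB motif or the TATA box TATAAA, on either strand. Over the 35116 promoter windows of the RefSeq table, 45.0% held a GC box, 45.3% CAGAC, 7.71% the AP-1 letters, 11.3% an NF-κB motif and 11.5% TATAAA. Over the 24 windows of the 10 genes, several of which have more than one start, these were found in 12, 9, 2, 5 and 2. All of these are matches of letters in a short window and not measured binding sites.

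Control cells expressed the parts of the pathway at very different levels per kilobase of annotated exon, from the matrix protein and SMAD3 at the top to TGFB3 at the bottom. Over the 18 control libraries, TGFBI stood at 136 ± 11.4 CPM per kb (SD, n = 18). SMAD3 and the type II receptor TGFBR2 followed at 53.3 ± 5.93 and 52.2 ± 5.87 CPM per kb, with overlapping ranges. Next came TGFB1 at 30.1 ± 6.26 and TGFB2 at 19.1 ± 6.06 CPM per kb, whose ranges also overlapped. SMAD2, at 4.82 ± 0.705, and the type I receptor TGFBR1, at 4.27 ± 0.466 CPM per kb, could not be ordered either. Before division by length SMAD2 had a mean of 175 CPM and TGFBR1 of 34.1 CPM. The SMAD2 value rests on 36426 bases of annotated exon, the longest of the 10 genes, against 7990 for TGFBR1. Its canonical transcript, at 34626 bases, is nearly as long, and which length these cells use was not tested. Lowest were TGFBR3 (2.53 ± 0.267), SMAD4 (2.04 ± 0.205) and TGFB3 (0.370 ± 0.0713 CPM per kb), and TGFB3 had only 11 to 55 reads per library. The order rests on the length used. With the canonical transcript in place of all exons SMAD4 stood at 4.56 CPM per kb, above TGFBR3 at 3.43, TGFBR1 at 5.25, above SMAD2 at 5.07, and TGFBI at 386, while the first 5 genes kept their order. In control cells the difference between the last and the first collection was called for 0 of the 10 genes by edgeR, against 0.0104% of all genes. At an unadjusted p under 0.05 it was also past for 0, against 372 of the 19180 tested genes. It ranged from -0.29 (SMAD3) to 0.10 (TGFBR1) on the log2 scale.

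**Figure D2:**
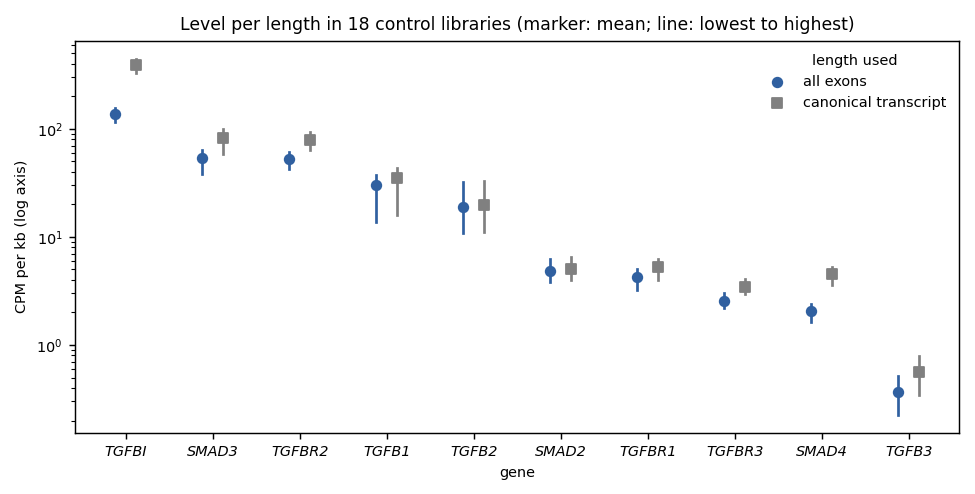
Level of each gene in the 18 control libraries in CPM per kb on a log axis (marker: mean, line: lowest to highest library), for the length of all annotated exons (circles) and of the canonical transcript (squares). TGFBI stood highest at 136 CPM per kb of exon and TGFB3 lowest at 0.370, and the order of SMAD4 and TGFBR3 turned with the length used.

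TGFBI (ENSG00000120708; GRCh37, chromosome 5, 135364677 to 135399507, plus strand) encodes an extracellular matrix protein that binds collagens and integrins. At day 6, control libraries had 1106, 1081 and 898 CPM and IL-1β libraries 2944, 2920.3 and 2308 CPM. At day 15 the control libraries had 999.6, 1033 and 926 CPM and the IL-1β libraries 2542, 2577 and 2268, and at day 21 the values were 1032, 1004 and 1066 against 2769.8, 2614 and 2905 CPM. The lowest IL-1β library of the exposure times (2268 CPM) thus stood far above the highest control library (1106 CPM). On the log2 scale the 3 differences were 1.41, 1.32 and 1.42 in that order (SE 0.13 each), with adjusted p of 1.16e-08, 2.75e-08 and 8.35e-09 by edgeR with Benjamini-Hochberg adjustment. The response at day 21 differed from that at day 6 by 0.01 (SE 0.18, 95% interval -0.35 to 0.37). For this difference edgeR called 0 of the 10 genes against 0.0104% of all. At an unadjusted p under 0.05, 0 of the 10 were past, against 429 of the 19180 tested genes. In bulk RNA, a higher level in each cell and a larger share of high cells cannot be told apart.

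On day 6 after withdrawal TGFBI was still above control in each library, at 1399, 1304 and 1738 CPM against 1196, 1111 and 981. At day 15 the values were 1211, 1226 and 1278 against 1089, 1112 and 1210.1 CPM, the lowest exposed library barely above the highest control. At day 30 the groups overlapped, at 1024, 1020.3 and 1037 against 1092, 951 and 942 CPM. The distance from control was thus smaller at each later time. Responses were 0.43 (SE 0.12, adjusted p = 0.0578), 0.12 (adjusted p = 0.872) and 0.05 (adjusted p = 0.936, edgeR) on the log2 scale. Without the high mitochondrial libraries the value at day 6 after withdrawal was 0.69 with an adjusted p of 0.0210, over 1 control and 2 IL-1β libraries, and without the single library IL1b replicate 2 of that time it was 0.52 with an adjusted p of 0.0345. From the mean over exposure to the mean after withdrawal the response fell by 1.18 (SE 0.10, adjusted p = 5.82e-09), and from day 21 to day 30 after withdrawal it fell by 1.37 (SE 0.18, adjusted p = 3.8e-05). For these differences 1 of the 10 genes was past both thresholds, against 1.29% and 0.626% of all. The second of them missed the threshold without the libraries of replicate 1 (fell by 1.32, adjusted p = 0.200).

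**Figure D3:**
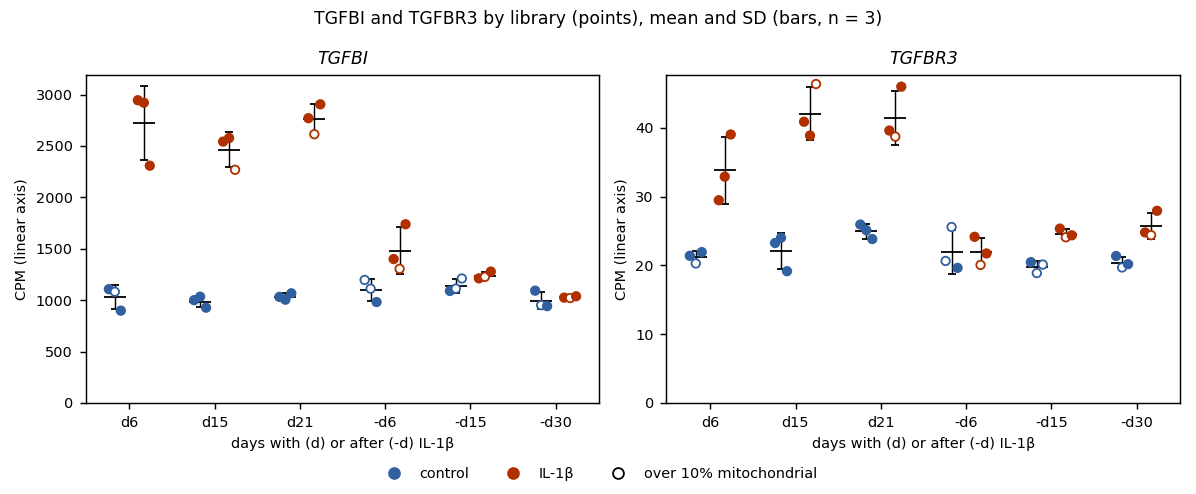
TGFBI (left) and TGFBR3 (right) in CPM on linear axes from 0, by time point, for each control (blue) and IL-1β (red) library, with mean and SD as bars (n = 3) and open points for libraries over 10% mitochondrial. The exposure groups do not overlap in either gene, and TGFBI came back to about 1000 CPM by day 30 after withdrawal.

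The receptors split in their response: the co-receptor TGFBR3 rose, the type I receptor TGFBR1 was slightly higher, and the type II receptor TGFBR2 passed no test. TGFBR3 (ENSG00000069702; chromosome 1, 92145900 to 92371892, minus strand) had 21.4, 20.3 and 21.9 CPM in the control libraries of day 6 and 29.5, 32.9 and 39.0 CPM with IL-1β. At day 15 these were 23.2, 24.0 and 19.1 against 40.9, 38.9 and 46.3 CPM. At day 21 they were 25.9, 25.1 and 23.8 against 39.6, 38.7 and 46.0 CPM. All 9 exposed libraries stood above all 9 control libraries of these times. These gave log2 fold changes of 0.67, 0.92 and 0.73 (SE 0.12 each; adjusted p = 0.000702, 7.01e-06 and 0.000167, edgeR), each under the 2-fold threshold. Without the libraries of replicate 1 the calls were lost at somewhat larger values, 0.78 at day 6 (adjusted p = 0.0890) and 0.80 at day 21 (adjusted p = 0.0545). The mean over exposure was 0.78 (SE 0.07).

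On day 6 after withdrawal TGFBR3 overlapped between the arms, at 20.6, 25.6 and 19.6 CPM in control and 24.1, 20.1 and 21.7 CPM in previously exposed cells. At the later times the previously exposed libraries again lay above all controls, at 25.3, 24.1 and 24.4 against 20.5, 18.9 and 20.1 CPM on day 15 and at 24.8, 24.4 and 27.9 against 21.4, 19.7 and 20.2 CPM on day 30. These separations were small. How many of all tested genes had their arms apart was not counted, here or for the genes below. Log2 fold changes of 0.00, 0.31 and 0.33 did not pass (adjusted p = 1.00, 0.372 and 0.315), nor did their mean of 0.22 (SE 0.07, adjusted p = 0.0664). That mean had an adjusted p of 0.0422 at 0.34 with total counts only, of 0.0474 at 0.29 without the high mitochondrial libraries, of 0.0233 at 0.26 without control replicate 2 of day 6 after withdrawal, and of 0.0425 at 0.24 without the IL-1β library of that number and time. The drop of the mean response from exposure to after withdrawal was 0.56 on the log2 scale (-0.56, SE 0.10, adjusted p = 0.00102, edgeR). With it 2 of the 10 genes, TGFBI and TGFBR3, passed the adjusted p for this difference, against 2.33% of all genes. For TGFBR3 it was lost when libraries were scaled by total counts only (-0.43, adjusted p = 0.193) and without the libraries of replicate 1 (-0.67, adjusted p = 0.108).

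TGFBR1 (ENSG00000106799; chromosome 9, 101866320 to 101916474, plus strand), the kinase that phosphorylates SMAD2 and SMAD3, ranged from 26.0 to 40.1 CPM (median 34.7) in the control libraries of the exposure times and from 36.6 to 52.2 CPM (median 41.1) with IL-1β. The ranges overlapped, with the exposed libraries toward the upper end. Its responses of 0.34, 0.30 and 0.24 on the log2 scale passed at no single time with all libraries, and their mean was 0.29 (SE 0.08, adjusted p = 0.0150, edgeR). After withdrawal the values were 0.11, 0.07 and -0.07, with a mean of 0.03 (SE 0.08, adjusted p = 0.854). The drop of 0.26 between the means was not called (-0.26, SE 0.12, adjusted p = 0.404). The call of the exposure mean was lost at similar values with total counts only (0.28, adjusted p = 0.0854), with no filter on low counts (0.30, adjusted p = 0.0659) and without the libraries of replicate 1 (0.33, adjusted p = 0.216) or 3 (0.28, adjusted p = 0.0901), and was kept without the high mitochondrial libraries (0.27, adjusted p = 0.00399). Day 21 passed in that last fit (0.38, adjusted p = 0.0304).

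TGFBR2 (ENSG00000163513; chromosome 3, 30648093 to 30735634, plus strand), the constitutively active kinase that first binds the ligand, had 294 to 421 CPM (median 344) in the exposure controls and 296 to 501 CPM (median 319.6) with IL-1β. The arms overlapped at each exposure time. Its log2 fold changes ran from -0.17 to 0.17 over the 6 time points, with a mean over exposure of 0.00 (SE 0.10, 95% interval -0.20 to 0.20). After withdrawal the mean was -0.00 with an interval of -0.20 to 0.19.

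Averaging the 3 exposure times put more libraries behind each value. In that mean 5 of the 10 genes passed the adjusted p alone, against 15.3% of all tested genes, 4 of them higher (TGFBI, TGFBR3, SMAD3 and TGFBR1) and SMAD2 lower, and TGFBI alone passed both thresholds, against 5.54% of all. In the mean after withdrawal SMAD2 was the 1 gene past the adjusted p, against 7.71% of all, and 0 of the 10 passed both thresholds by edgeR, against 2.39%. That of TGFBI was 0.20 (SE 0.07, adjusted p = 0.0914), and passed without the high mitochondrial libraries (0.31, adjusted p = 0.0334), with total counts only (0.33, adjusted p = 0.0392), by DESeq2's Wald test (0.19, adjusted p = 0.0298) and without IL-1β replicate 2 of day 6 after withdrawal (0.23, adjusted p = 0.0419). Without the high mitochondrial libraries this mean was 0.29 for TGFBR3, 0.64 for TGFB2 and -0.27 for SMAD2. That fit had 1 control library at each of days 6 and 15 after withdrawal. The share of all genes past the adjusted p in it is not given here.

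Of the signal transducers, the receptor-regulated SMAD3 and SMAD2 moved in opposite directions by small amounts, and the shared partner SMAD4 passed no test. SMAD3 (ENSG00000166949; chromosome 15, 67356101 to 67487511, plus strand), which binds DNA directly, had 643, 597 and 511 CPM in the day 6 controls and 896, 885 and 674 CPM with IL-1β. At day 21 the values were 561, 517 and 518 against 679, 661 and 671 CPM, and at day 15 they overlapped at 583, 557 and 504 against 721, 681 and 571 CPM. The arms were apart at days 6 and 21. In log2 terms the responses were 0.49 (SE 0.15, adjusted p = 0.0548), 0.26 and 0.33, and their mean was 0.36 (SE 0.08, adjusted p = 0.00231, edgeR). At day 6 it passed at 0.53 without the high mitochondrial libraries (adjusted p = 0.0139) and at 0.61 without IL-1β replicate 3 alone (adjusted p = 0.0199). Day 21 passed in a separate fit of that time (0.34, adjusted p = 0.0370) and with the mitochondrial share as a term (0.39, adjusted p = 0.0379). The exposure mean missed the threshold with total counts only (0.36, adjusted p = 0.0709) and without the libraries of replicate 1 (0.38, adjusted p = 0.0519). After withdrawal the mean was 0.19 (SE 0.08, adjusted p = 0.209), and its difference from exposure was -0.17 (SE 0.12, adjusted p = 0.602).

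SMAD2 (ENSG00000175387; chromosome 18, 45335328 to 45457517, minus strand), which transduces the signal alongside SMAD3, had the lower group mean with IL-1β at each of the 6 time points. In the controls of the exposure times it had 139 to 210.3 CPM (median 165) and with IL-1β 110.3 to 209 CPM (median 128). After withdrawal it had 151 to 226 CPM (median 176) in control and 109 to 191 CPM (median 144) in previously exposed cells. At day 21 the libraries lay close together, with 139.6, 141 and 139 CPM in control and 110.4, 110.3 and 114 CPM with IL-1β. The log2 fold changes ranged from -0.38 to -0.23 (SE 0.17 each) and none passed, with adjusted p of 0.363 to 0.684. At day 15 it passed without the high mitochondrial libraries (-0.51, adjusted p = 0.0119), and at day 21 in a separate fit of that time (-0.32, adjusted p = 0.0233) and with the mitochondrial share and the replicate block as terms (-0.42, adjusted p = 0.0319). Their means were -0.31 over exposure (SE 0.10, adjusted p = 0.0325) and -0.34 after withdrawal (SE 0.10, adjusted p = 0.0364, edgeR), and they differed by -0.02 (95% interval -0.32 to 0.27).

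Both SMAD2 calls stood close to the threshold. With no filter on low counts both were lost (edgeR adjusted p = 0.0847 over exposure and 0.0983 after withdrawal). Leaving out replicate 1, 2 or 3 gave -0.35 to -0.28 over exposure (adjusted p = 0.327, 0.184 and 0.0790). After withdrawal it gave -0.37 to -0.32 (adjusted p = 0.383, 0.148 and 0.0877). DESeq2 size factors lost the exposure mean (-0.29, adjusted p = 0.0595). Total counts only lost the mean after withdrawal (-0.20, adjusted p = 0.198). Leaving out any 1 of 10 libraries raised the adjusted p of the exposure mean to between 0.0508 and 0.0891, with values of -0.31 to -0.27: IL-1β replicates 1 and 3 and control replicate 2 of day 6, IL-1β replicates 1 and 2 and control replicate 3 of day 15, and IL-1β replicates 1 and 2 and control replicates 2 and 3 of day 21. For the mean after withdrawal another 10 did so, to between 0.0526 and 0.102, with values of -0.34 to -0.29: IL-1β replicate 1 and control replicates 2 and 3 of day 6, IL-1β replicates 1 and 3 and control replicates 2 and 3 of day 15, and IL-1β replicates 1 and 2 and control replicate 2 of day 30. Without the high mitochondrial libraries the exposure mean was -0.38 (adjusted p = 0.000549) and the mean after withdrawal -0.27 (adjusted p = 0.0849). SMAD2 had 151 to 226 CPM (median 197) in the 6 control libraries of high mitochondrial share and 139 to 210.3 CPM (median 166) in the other 12. The part of this share in the SMAD2 difference after withdrawal was not tested beyond these fits.

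SMAD4 (ENSG00000141646; chromosome 18, 48554898 to 48611415, plus strand), which enters the nucleus with either SMAD, had 36.5 to 46.6 CPM in the exposure controls and 29.6 to 44.3 CPM with IL-1β. Its log2 fold changes ran from -0.16 to 0.02 over the time points, and the exposure mean was -0.04 (SE 0.08, 95% interval -0.22 to 0.13). Of the 10 genes it had the smallest range of group means over the 12 groups, 0.16 in log2 CPM.

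**Figure D4:**
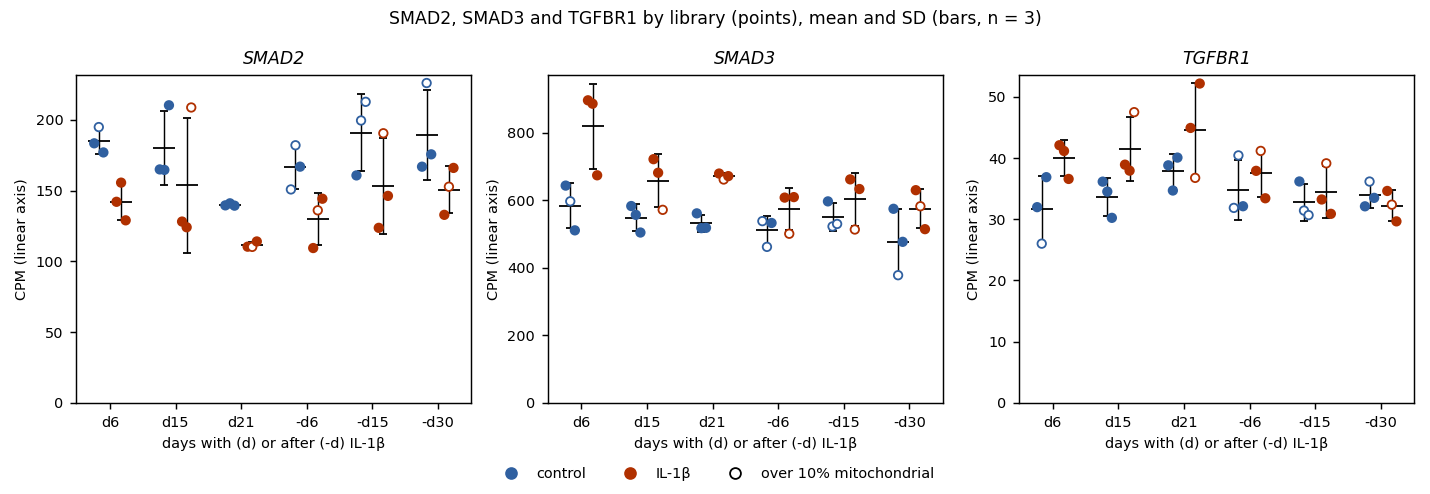
SMAD2, SMAD3 and TGFBR1 in CPM on linear axes from 0, by time point, for each control (blue) and IL-1β (red) library, with mean and SD as bars (n = 3) and open points for libraries over 10% mitochondrial. SMAD2 means were lower and SMAD3 means higher with IL-1β at all 6 times, by less than 2-fold.

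Among the ligands no change was called in the fit with the 12 groups as the only terms, and the spread between libraries was widest for TGFB1 and TGFB2. The paper that reported these libraries names TGFB1 among its examples of genes sensitive to IL-1β, unlike the result here. The reason for the difference was not tested. TGFB1 (ENSG00000105329; chromosome 19, 41807492 to 41859827, minus strand), the most widely expressed TGF-β ligand, had 107, 108 and 99.2 CPM in the day 6 controls and 132, 115 and 124 CPM with IL-1β. At day 15 it had 109, 113 and 93.7 against 119, 122 and 46.8 CPM, where the low library was 1 of the 11. At day 21 it had 103, 109 and 111 against 120.3, 145 and 113 CPM. The arms were apart at days 6 and 21 and overlapped at day 15. Neither day with the arms apart passed (adjusted p = 0.946 and 0.998, edgeR). Over the 6 times the log2 fold changes ran from -0.14 to 0.37 (SE 0.32 each), and the exposure mean was 0.11 (SE 0.18, 95% interval -0.27 to 0.48, adjusted p = 0.830). The mean after withdrawal was 0.22 (SE 0.18, adjusted p = 0.559).

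TGFB2 (ENSG00000092969; chromosome 1, 218518678 to 218617961, plus strand), the ligand that depends most on TGFBR3, had 99.8, 92.0 and 96.5 CPM in the day 15 controls and 125, 119 and 284 CPM with IL-1β. The library at 284 CPM was the one in which TGFB1 was low. At day 6 the values were 114, 154 and 84.4 against 152, 145 and 104 CPM, and at day 21 they were 102, 90.1 and 85.9 against 114, 143 and 105 CPM. The arms were apart at days 15 and 21 and overlapped at day 6. Its responses at the exposure times, in order, were 0.19, 0.87 and 0.38 on the log2 scale (SE 0.35 each; adjusted p = 0.970, 0.172 and 0.886, edgeR). Their mean was 0.48 (SE 0.20, adjusted p = 0.125) and the mean after withdrawal 0.32 (SE 0.20, adjusted p = 0.418).

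Levels of both ligands went with the mitochondrial share of the library. In control cells TGFB2 had 132 to 193 CPM (median 159, n = 6) in libraries of high share and 65.7 to 114 CPM (median 94.2, n = 12) in the others, with no overlap. In the IL-1β arm, exposed or previously exposed, it had 143 to 284 CPM (median 221, n = 5) and 104 to 152 CPM (median 129, n = 13). TGFB1 went the other way in most of them, at 44.6 to 117 CPM (median 72.4) against 93.7 to 122 CPM (median 107) in control and 46.8 to 145 CPM (median 63.1) against 103 to 132 CPM (median 120.3) in the IL-1β arm. In 7 of the 11 libraries TGFB1 was below, and in the other 4 within or above, the range of the low-share libraries of its arm. Without the 11 libraries TGFB2 had a mean log2 fold change of 0.35 over exposure (SE 0.10, adjusted p = 0.00970) and 0.64 after withdrawal (SE 0.12, adjusted p = 0.00206). With the high share as a term in the fit of all 36, these were 0.37 (adjusted p = 0.00492) and 0.53 (adjusted p = 0.000241), and TGFB2 at day 6 after withdrawal passed at 0.73 (adjusted p = 0.00586). TGFB1 passed without the 11 libraries over exposure (0.20, SE 0.07, adjusted p = 0.0324) and not after withdrawal (0.12, adjusted p = 0.563). What the mitochondrial share reflects was not tested. Of the exon length, 11.6% in TGFB2 and 6.59% in TGFB1 is shared with a gene on the opposite strand (TGFB2-AS1 and HNRNPUL1), and the strand setting of the counting is not given in the sources used here.

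**Figure D5:**
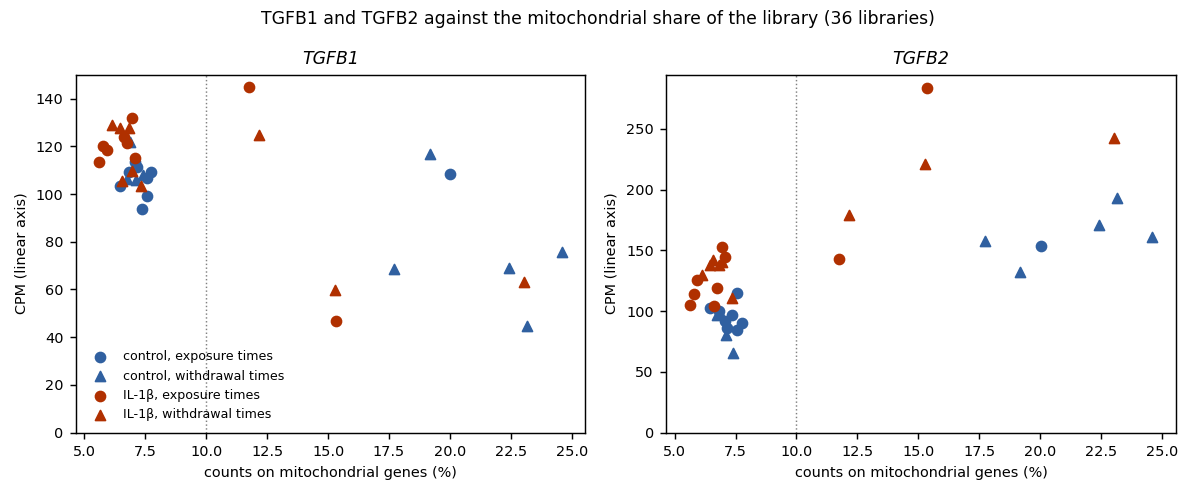
TGFB1 (left) and TGFB2 (right) in CPM on linear axes from 0 against the percent of counts on mitochondrial genes, for each of the 36 libraries, with control in blue, the IL-1β arm in red, exposure times as circles, withdrawal times as triangles and a dotted line at 10%. The libraries right of the line had TGFB2 at 132 to 284 CPM, against 65.7 to 152 CPM left of it.

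TGFB3 (ENSG00000119699; chromosome 14, 76424440 to 76449354, minus strand), the least expressed ligand, had 1.18 to 2.70 CPM (median 1.79) in the exposure controls and 1.14 to 2.10 CPM (median 1.30) with IL-1β. Log2 fold changes were below 0 at all 6 times, from -0.41 to -0.12 (SE 0.28 to 0.29), and the exposure mean of -0.37 (SE 0.16) did not pass (adjusted p = 0.153, edgeR).

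The wider pathway was followed in 45 genes on 4 lists, of which 42 could be tested (CDKN2B had 0 counts in all 36 libraries, and ACVRL1 and LDLRAD4 had at most 9 and 4 in any). During exposure 2, 3 and 7 of the 42 were past both thresholds at days 6, 15 and 21, all higher with IL-1β, beside 1.52%, 1.94% and 2.19% of all genes higher by that rule. After withdrawal 4 were higher at day 6 (1.08% of all genes), and 1 and 2 were lower at days 15 and 30 (0.36% and 0.464% of all genes lower). These counts depend on the libraries used. They fell to 1, 1, 2, 0, 0 and 0 without the libraries of replicate 1, a fit that also has fewer libraries in each group.

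Among the 15 tested target genes of TGF-β signalling, SNAI2, COL1A1 and CCN2 rose with IL-1β and FN1 fell after withdrawal. SNAI2, the EMT transcription factor SLUG, went from 2.38 ± 0.709 to 22.3 ± 9.08 CPM at day 21, with 1.64 at day 6 (adjusted p = 0.0505), then 2.83, 3.23 and, once IL-1β had been gone for 6 days, 2.86 on the log2 scale. COL1A1, a chain of type I collagen, was low at 1.03 ± 0.209 against 2.43 ± 0.541 CPM at day 21 (1.24, adjusted p = 0.00574), and rose at day 6 also (1.02, adjusted p = 0.0441). CCN2, a matricellular growth factor, passed both thresholds at day 21 (1.13, adjusted p = 0.00144) and the adjusted p alone on day 6 (0.96, adjusted p = 0.0106) and on day 6 after withdrawal (0.96, adjusted p = 0.0156). FN1 encodes fibronectin, a matrix protein. It had 294 ± 70.7 CPM in control and 88.2 ± 11.8 CPM in previously exposed cells at day 30 after withdrawal (-1.74, adjusted p = 0.000291, edgeR), -1.07 at day 15 (adjusted p = 0.0261) and -0.49 at day 6 (adjusted p = 0.586), after 0.02 to 0.50 during exposure. Without the high mitochondrial libraries FN1 kept its call at day 30 (-1.77, adjusted p = 0.0135) and lost it at day 15 (-0.99, adjusted p = 0.599), and COL1A1 lost its call at day 6 (0.97, adjusted p = 0.101). In the same fit CCN2 no longer passed on day 6 after withdrawal (0.94, adjusted p = 0.130), while SNAI2 passed at day 6 of exposure (1.87, adjusted p = 0.000201). The median of the 15 genes was 0.31, 0.19 and 0.50 during exposure, and 5 of the 15 were higher and 2 lower in the exposure mean on the adjusted p alone, beside 7.54% and 7.81% of all genes.

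Of the 9 genes that store or release latent TGF-β, 2 passed both thresholds at day 21 and 2 on day 6 after withdrawal, all higher, beside 2.19% and 1.08% of all genes. LTBP1, which tethers the latent ligand to the matrix, had 2.52 ± 0.253 against 5.52 ± 0.621 CPM at day 21 (1.13, adjusted p = 0.00219). ITGB6, the integrin subunit that activates latent TGF-β on epithelial cells, was low at 0.563 ± 0.144 against 1.46 ± 0.335 CPM at day 21 (1.41, adjusted p = 0.00980). It had 1.37 at day 6 after withdrawal (adjusted p = 0.0404). Days 6 and 15 of exposure did not pass (1.01 and 0.33, adjusted p = 0.153 and 0.643, edgeR). Its control mean ran from 0.563 CPM at day 21 to 1.19 CPM at day 30 after withdrawal. THBS1, thrombospondin 1, another activator, reached 97.5 ± 18.9 against 48.7 ± 10.9 CPM at day 6 after withdrawal (1.00, adjusted p = 0.0180), with 0.83 at day 21 (adjusted p = 0.0353). At day 6 after withdrawal THBS1 lost the call without the high mitochondrial libraries (1.39, adjusted p = 0.0627). Of the 13 SMAD partners and inhibitors, SMURF2, a ubiquitin ligase that targets the receptor complex and SMADs for degradation, had 82.6 ± 16.3 against 35.6 ± 3.59 CPM at day 15 (1.21, adjusted p = 0.00348) and 1.06 at day 21 (adjusted p = 0.0103), and was back at 0.03 at days 15 and 30 after withdrawal. Of the 5 tested co-receptors and receptor regulators, BAMBI, a decoy receptor without a kinase domain, was the 1 that passed both thresholds at any time. It had 3.65 ± 0.305 against 8.39 ± 0.779 CPM in control at day 30 after withdrawal (-1.20, adjusted p = 0.00344), where 0.464% of all genes were lower by that rule, with -0.79 and -0.92 at days 6 and 15 of exposure (adjusted p = 0.0332 and 0.00776).

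TGFBI and TGFBR3 were also the 2 of the 10 genes with the widest range of group means over the 12 groups, 1.49 and 1.08 in log2 CPM. The genes whose group means went most closely with TGFBI, by Pearson's r over the 12 groups, were CCL2 (0.989), GOLGA7B (0.988), TNIP1 (0.988), a gene listed as ENSG00000112096 with no symbol in the tables (0.988) and C15orf48 (0.981). For TGFBR3 they were MIR3142HG (0.951), EGLN1 (0.944), RELL1 (0.941), PDP1 (0.941) and STARD13 (0.939). The 12 points share their libraries, and the genes were picked as the closest of all those tested, so these values are a description only.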

How the data were processed

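RNA was measured in 36 libraries of A549 cells, made with a stranded mRNA kit per the labels. The authors deposited 1 table per library of raw read counts per Ensembl gene, without normalization. The submitters' processing notes name bcl2fastq 2.17, TopHat2 2.0.14, Bowtie2 2.2.5, HTSeq 0.6.1 and build GRCh37, while the annotation release and strand setting are not given in the sources used here. Unassigned reads (8.48% to 18.6% on no gene, 2.62% to 4.18% ambiguous) stayed out of library sizes.

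Symbols and positions were matched to GENCODE v44lift37 by identifier. Genes were filtered with edgeR's filterByExpr (19180 kept), scaled by TMM and fitted over all 36 libraries with the 12 groups as terms, leaving 24 residual degrees of freedom, by edgeR 4.0.16 quasi-likelihood in R 4.3.3. P-values were adjusted by Benjamini-Hochberg over all tested genes. CPM used the same scaling, and log2 CPM a prior count of 2. The fit was also run on simulated counts, with an outcome that is not reported here. Those counts held no effect of mitochondrial share and no link between libraries of the same replicate number.

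The 10 genes and the pathway lists were chosen with earlier results of these data known. All 10 are named in each comparison, and of the lists the genes past both thresholds at any time point, except 1 that is counted but not reported here. For the 2 genes of widest range the 5 closest in group means are named. FN1 and the other listed genes are named with their alternatives only where a call changed.

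Alternatives were DESeq2 1.42.0 (size factors and Wald test), total counts only, no filter, a separate fit of each time point, the replicate number as a block, each replicate number left out, high mitochondrial share (over 10%) left out or as a covariate, with or without the block, and the adjusted p alone. Leaving out each library in turn was added after seeing the data.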

Additional observations from a re-analysis of the deposited data

Results flagged for a closer look

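The response of TGFBI to IL-1β differed between the exposure times and the times after withdrawal by -1.18 on the log2 scale, and between day 30 after withdrawal and day 21 of exposure by -1.37, each by a test of the difference itself (edgeR quasi-likelihood, Benjamini-Hochberg adjusted p = 5.82e-09 and 3.8e-05). Both differences share the day 21 and day 30 libraries. The response of TGFBR3 differed between the exposure times and the times after withdrawal by -0.56 (adjusted p = 0.00102). Without the libraries of replicate 1 the TGFBI difference of -1.37 missed the threshold (-1.32, adjusted p = 0.200). The TGFBR3 difference missed it in that fit (-0.67, adjusted p = 0.108) and with total counts only (-0.43, adjusted p = 0.193). Groups of 3 libraries are too small for a test of single outlying libraries.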

How the results depend on the processing

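Over the 10 genes and 12 comparisons, 1324 of 1380 values under the alternatives kept their side of the adjusted p threshold, 22 lost the call, 34 gained it and 0 called values changed sign. Of the 1324, 143 that were past the threshold in neither fit changed sign. TGFBI was past the adjusted p at all 3 exposure times in each of the 12 fits, with log2 fold changes of at least 1.25. With each library left out in turn, 1355 values kept their side, 20 (all SMAD2) lost the call and 5 gained it.

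On the adjusted p alone, 2 genes each were past at days 6, 15 and 21, 5 in the exposure mean, 1 in the mean after withdrawal and 2 in their difference. Leaving out replicate numbers gave 1 to 2 genes past both thresholds at day 15, where TGFBR3 crossed 2-fold, and 0 to 1 for day 30 after withdrawal minus day 21. Pathway genes past both thresholds (2, 3, 7, 4, 1 and 2 over the 6 times) became 6 and 7 at days 6 and 15 on the adjusted p alone, and 4 at day 6 with mitochondrial share and replicate block. Leaving out replicate numbers or libraries gave 1 to 2 at day 6, 1 to 5 at day 15, 2 to 7 at day 21, 0 to 4 at day 6 after withdrawal, and 0 to 1 and 0 to 2 at days 15 and 30. Separate fits gave 0 at each time after withdrawal. At day 15 after withdrawal, leaving out the high mitochondrial libraries gave 0 and the share as covariate, with or without the block, 2. At day 30 total counts gave 1. The cause was not tested.

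The replicate numbers do not mark a shared batch in the labels, so same-numbered libraries were not taken as pairs in the main fit. Same-numbered control and IL-1β libraries nevertheless tended to deviate from their group means together. These deviations correlated with a mean of 0.28 over 18 pairs (-0.34 to 0.72, 14 over 0.1), and the main fit leaves this out. With the replicate block, TGFBI at day 6 after withdrawal was 0.44 (adjusted p = 0.0439) and SMAD3 at day 6 was 0.49 (adjusted p = 0.0152), and no other of the 10 genes changed its call.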

Other observations

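PMEPA1, a feedback inhibitor of SMAD signalling, was named after its values were seen. Its mean log2 fold change was 0.66 over exposure (SE 0.11, adjusted p = 2.39e-05, edgeR) and -0.46 after withdrawal (SE 0.11, adjusted p = 0.00464), and the difference of -1.12 (SE 0.15, adjusted p = 1.73e-05) passed. COL1A1 and FN1 had differences between these means of -1.28 (SE 0.24, adjusted p = 0.0017) and -1.34 (SE 0.21, adjusted p = 0.00014). Their control means moved too. For COL1A1, a low gene, these ran from 1.03 CPM at day 21 to 2.41 ± 0.987 CPM at day 30 after withdrawal. For FN1 they ran from 184 to 294 CPM between the same times, with 276 CPM at day 6 of exposure. The part of the controls in these differences was not tested. For the difference between the means, 3 of the 42 tested pathway genes were past both thresholds, against 1.29% of all genes. On the adjusted p alone 4 of them were past, against 2.33%. For SNAI2 the mean after withdrawal was 1.63, against 2.57 over exposure, and the difference of -0.94 did not pass (SE 0.38, adjusted p = 0.304). No explanation was tested.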
